A study of Mus musculus with 4 samples.

Results

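Potassium channel genes were examined here in open chromatin maps of the newborn mouse heart. The group comprises the protein-coding genes of GRCm38 whose symbol starts with Kcn, with 1 gene left out, which gave 93 of 21631 protein-coding genes. A peak belonged to the group when it lay within 20 kb of the body of such a gene. After overlapping peaks of all libraries had been merged, 373 of 53140 regions did so, around 83 of the 93 genes (89.2%, against 79.1% of all protein-coding genes). No region lay near Kcna6, Kcna10, Kcnh8, Kcnj13, Kcnj16, Kcnk1, Kcnk10, Kcnmb1, Kcns1 or Kcns3. A set of 7 cardiac channels (Kcnj2, Kcnj3, Kcnj5, Kcnq1, Kcnh2, Kcnd2 and Kcnd3) held 60 of these regions and was set beside the other 86 genes with 313.

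The assay was ATAC-seq, which cuts and tags exposed DNA with the Tn5 transposase, on whole hearts of C57BL/6 mice at P0, the day of birth. There were 2 wild-type (WT) hearts and 2 edKO hearts, in which RXR alpha and RXR beta had been deleted in cardiomyocytes only (RXRab-/-), with 1 heart per library. These nuclear receptors pair with other receptors on DNA, and the comparison asks where open chromatin differs without them. Neither the promoter that drives the recombinase nor any allele of the WT hearts is given in the labels, and a whole heart also holds cells in which nothing was deleted.

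Potassium channels let potassium leave the cell, which ends the cardiac action potential and holds the membrane at rest. Pore subunits of the Kv, KCNQ and KCNH types open on depolarization, inward rectifiers of the Kcnj family set the resting potential, tandem-pore Kcnk channels carry leak current, and Kcne, Kcnip, Kcnab and Kcnmb proteins are auxiliary subunits. In the ventricle of the adult mouse the transient outward current of the Kcnd channels dominates repolarization, while Kcnq1 and Kcnh2 are best known as the genes of the human long QT syndrome.

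The lists held 35279 and 38809 peaks in WT 1 and WT 2 and 27473 and 27142 in edKO 1 and edKO 2. The lowest local background of a list, which rises with its depth, was 1.81, 1.80, 1.51 and 1.92, and the median number of fragments at a summit was 23, 23, 19 and 18. Gene ends of 6 of 7 cardiomyocyte markers were called in every library. Of the 4 fibroblast markers, 2 were called in WT 1, 3 in WT 2 and 1 in each edKO library. Of the 3 immune markers, 1 was called in each WT library and 0 in each edKO library. In the lists for endothelial, smooth muscle, epicardial, erythroid and neuronal cells the counts of both genotypes met or overlapped. The part of depth, enrichment and cell makeup in the results was not tested, and a site that closes in cardiomyocytes and a heart with fewer cardiomyocytes cannot be told apart.

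Fewer potassium channel regions were called in the edKO hearts, in step with their shorter peak lists. Calls numbered 236 and 248 in WT 1 and WT 2 and 165 and 188 in edKO 1 and edKO 2. Both edKO libraries lay below both WT libraries. The means were 242 ± 8.49 (SD, n = 2) and 176.5 ± 16.3 (SD, n = 2), a ratio of 0.729, while the ratio for whole peak lists was 0.737. The exact permutation test, two-sided, gave p = 0.33, the smallest value that 2 hearts against 2 allow. As a share of all regions called in a library, the group took 0.684% and 0.653% in WT 1 and WT 2 and 0.623% and 0.716% in edKO 1 and edKO 2. On this scale the genotypes overlapped, with both edKO values outside the WT range on opposite sides (exact permutation p = 1). With every list cut to the length of the shortest, the direction of the count turned, to a mean of 169.5 in WT and 176 in edKO (exact permutation p = 1).

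**Figure D1:**
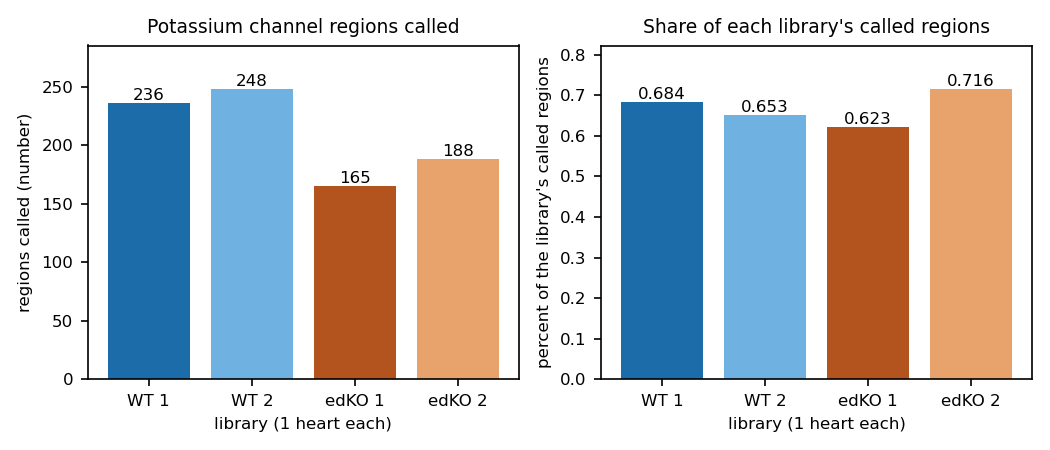
Bars give, for each of the 4 libraries, the number of regions within 20 kb of a potassium channel gene with a called peak (left) and that number as a percent of all regions called in the library (right). The WT libraries stand at 236 and 248 and the edKO libraries at 165 and 188, while the shares run from 0.623% to 0.716% without separating the genotypes.

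The share of regions without a call in either edKO heart lay near that of all regions when a flank of 20 kb was used. Closer to the genes it was higher, beside a value for all regions that is not matched for position. Of the 185 group regions called in both WT hearts, 37 were called in neither edKO heart (WT-only), 20% against 19.4% of all merged regions. A further 44 were called in 1 edKO heart, 23.8% against 21.6% of all regions, and 104 in both. Inside the gene bodies alone, 26 of 102 were WT-only (25.5%), and with a flank of 5 kb 30 of 125 (24%), both beside the same 19.4%. That value pools all positions. Group regions inside any gene body and away from gene ends stood at 27.5%, against 27.0% of all such regions. No test was made of these differences. In the reverse direction 2 of the 109 regions called in both edKO hearts were called in neither WT heart (edKO-only), 1.83% against 1.35% of all regions. Of the 373 regions, 164 were called in a single heart, 41 and 51 in WT 1 and WT 2 and 18 and 54 in edKO 1 and edKO 2. The high number in edKO 2 was 28.7% of its group calls, against 23.2% of all its calls.

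WT-only regions were weak ones, around potassium channel genes and elsewhere. Strength is the mean percentile of the authors' −log10 p within both lists of a group. WT-only regions of the group had a median strength of 31.2, against 54.9 for all group regions called in both WT hearts, and 31.9 and 60.1 over all merged regions. In the band of strength from 50 to 75, 5 of 57 group regions were WT-only (8.77% against 8.86% of all regions). Above a strength of 75, 0 of 50 were, and all 50 were called in all 4 hearts, while 35 of 8985 (0.390%) were WT-only over all regions. Between 25 and 50 the values were 23 of 59 (39.0% against 37.7%), and below 25 they were 9 of 19 (47.4% against 57.8%).

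**Figure D2:**
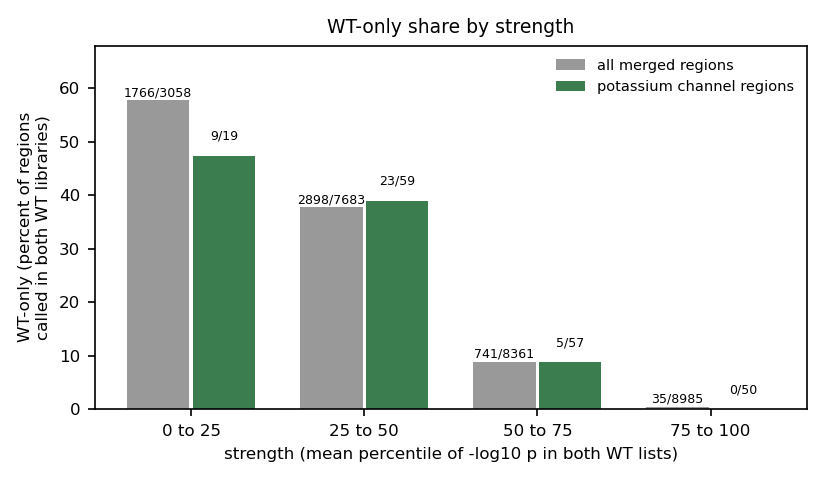
Bars give the percent of regions called in both WT libraries that were called in neither edKO library, by band of strength, for all merged regions and for those within 20 kb of a potassium channel gene, with the counts above the bars. The group's bars lie near the grey ones from 25 upward, at 39.0%, 8.77% and 0%, and lower in the weakest band, at 47.4% against 57.8%.

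The WT-only share also differed by the position of a region, with values near those of all regions. At ends of protein-coding genes, within 1 kb, 5 of 71 group regions were WT-only (7.04% against 5.92% of all such regions). Inside gene bodies it was 25 of 91 (27.5% against 27.0%), and between genes 7 of 23 (30.4% against 29.2%). Only 276 of the 373 regions had a potassium channel gene as their nearest gene body. Of these, 33 of 125 were WT-only (26.4%, above the 19.4% of all regions). Of the 97 regions nearer to another gene 4 of 60 were (6.67%, below it). Gene ends made up 46.4% of these 97, 26.8% of the 276 and 26.6% of all regions. The WT-only shares were not matched for position. Of the 97 regions nearer to another gene, 47 were called in all 4 hearts. Kcnk4, a mechanosensitive leak channel, is such a case: all 6 of its regions were called in all 4 hearts, and all 6 lay nearer to neighbours such as Esrra, Bad and Trmt112.

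Counted by gene, 19 of the 83 genes with a region had fewer called regions in both edKO hearts than in either WT heart, 22.9% against 23.0% of the 17110 protein-coding genes with a region. The opposite held for 3 genes, Kcnj3, Kcnk2 and Kcnk6, which is 3.61% against 1.22% of genes. Kcnk2, an arachidonic acid-sensitive leak channel, had 0, 0, 1 and 2 called regions in WT 1, WT 2, edKO 1 and edKO 2, and Kcnk6 had 2, 2, 3 and 5. Both were named after their values had been seen, and none of the 3 regions of Kcnk2 was called in both edKO hearts.

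Among the 7 cardiac channels, calls numbered 44 and 48 in the WT hearts and 28 and 33 in the edKO hearts, a ratio of group means of 0.663 against 0.745 for the other channels (exact permutation p = 0.33 for each, the smallest possible). WT-only regions numbered 8 of the 38 present in both WT lists (21.1%), beside 29 of 147 for the other channels (19.7%) and the 19.4% of all regions. Of the 21 regions called in both edKO hearts 1 was edKO-only (4.76%), beside 1 of 88 for the other channels (1.14%) and 1.35% of all regions. The 7 genes differed widely, from 27 regions at Kcnq1 to 1 each at Kcnj3 and Kcnd2. Of the 7, 4 had fewer called regions in both edKO hearts than in either WT heart (57.1%). Over all protein-coding genes with a region it was 23.0%. The opposite held for 1 of the 7 (14.3% against 1.22%). The 7 genes had a median of 6 regions, against 3 for all protein-coding genes, and no test was made.

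**Figure D3:**
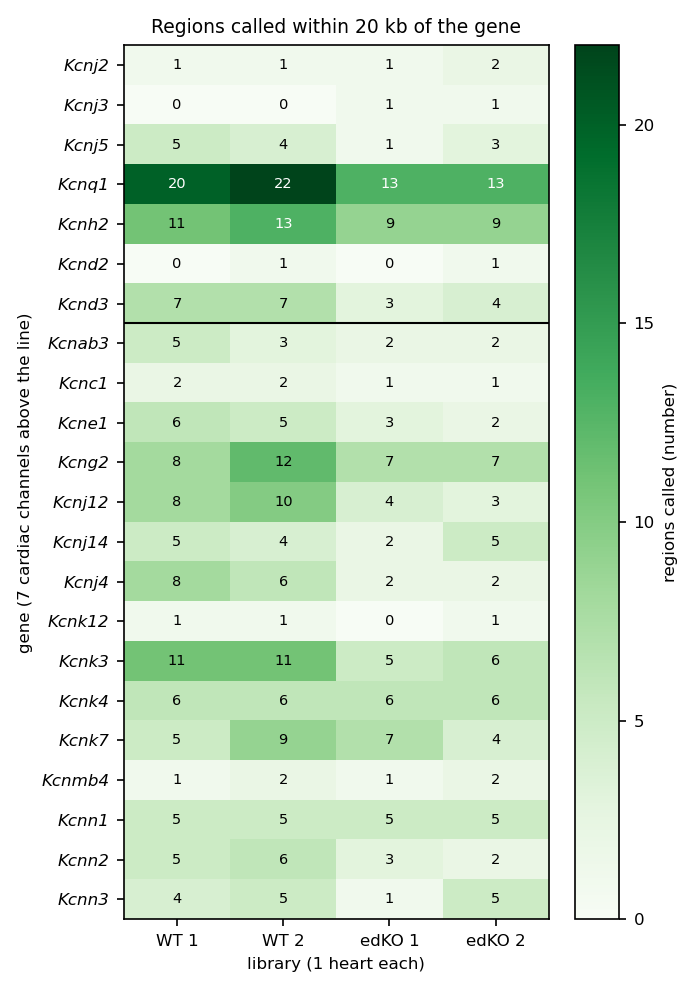
Each cell gives the number of regions within 20 kb of a gene (rows) that were called in a library (columns), for the 7 cardiac channels above the line and other genes named in the text below it. Kcnq1 is darkest, at 20 and 22 regions in the WT hearts and 13 in each edKO heart, and Kcnk4 and Kcnn1 have the same number, 6 and 5, in every heart.

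Kcnq1 (chromosome 7, 143106877 to 143427050) encodes the pore of the slow delayed rectifier. It carried 20, 22, 13 and 13 called regions in WT 1, WT 2, edKO 1 and edKO 2, so the WT and edKO hearts did not overlap. Fewer calls in both edKO hearts than in either WT heart held for 23.0% of all protein-coding genes with a region. Of the 27 regions of Kcnq1, 10 were called in all 4 hearts. The strongest of these was intragenic (143296394 to 143296965), and the authors' −log10 p there stood at 53.9, 57.5, 40.2 and 16.7 in WT 1, WT 2, edKO 1 and edKO 2. Gene positions covered protein-coding genes only, so a non-coding gene at this site would not be named here. A pair of neighbours closer to one end of the gene, at 143122201 to 143122729 and 143124205 to 143124709, was also called throughout, the latter at 22.3, 43.1, 36.7 and 23.7. The 3 WT-only regions were weak, at 9.33 and 4.95 (143094864 to 143095218, nearer to Trpm5), 9.72 and 5.68 (143154661 to 143154901) and 5.89 and 11.3 (143283651 to 143283957) in WT 1 and WT 2. Its gene end (143107058 to 143107611) was called in every heart, at 17.1, 16.3, 7.69 and 5.74.

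Kcnh2 (chromosome 5, 24319589 to 24351684), the pore of the rapid delayed rectifier, had 11, 13, 9 and 9 called regions over 32.1 kb, where Kcnq1 spans 320.2 kb. Of its 14 regions, 6 were called in all hearts, among them a region in the gene body (24337221 to 24337799) at −log10 p of 56.1, 84.7, 27.5 and 28.7. Its 2 WT-only regions both lay outside the gene and ranked among the 4 strongest WT-only regions of the whole group. The first, 19055 bp away (24300210 to 24300534), reached 11.9 and 21.3 in WT 1 and WT 2, with 21 and 32 fragments at the summit. The other, 5867 bp beyond the opposite end (24357551 to 24357860), reached 13.3 and 13.4, with 33 and 38 fragments. Right beside the first lay a region (24299838 to 24300155) found in WT 1, WT 2 and edKO 1, at 11.2, 14.4 and 8.06, so edKO 1 did have a peak at this flank.

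The Kcnd genes encode the Kv4 pores of the transient outward current. Kcnd3 (chromosome 3, 105451890 to 105674002) had 7, 7, 3 and 4 called regions, without overlap between the genotypes, as for 23.0% of all protein-coding genes with a region. Of its 2 WT-only regions, the one in the gene body (105642187 to 105642590) reached −log10 p of 9.90 and 16.2 and the one 699 bp past the gene (105674701 to 105675072) 11.9 and 7.20. Its strongest region, at 101, 73.7, 59.9 and 33.1, was nearer to Ddx20. Kcnd2 (chromosome 6, 21215346 to 21729805) is the longest of the 7 at 514.5 kb, yet only its start carried a region (21215098 to 21215385), called in WT 2 at 9.02 and in edKO 2 at 4.47.

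Of the inward rectifiers, Kcnj2 (chromosome 11, 111066164 to 111076825), which carries the current that holds the resting potential of ventricular myocytes, showed 1 strong region at its start (111065722 to 111066518). Its −log10 p values were 70.3, 77.0, 45.6 and 29.7 in WT 1, WT 2, edKO 1 and edKO 2, with 81, 86, 52 and 38 fragments at the summit. These values are not scaled for depth and give no fold between hearts. A weak region 8274 bp away was called in edKO 2 only.

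Kcnj3 and Kcnj5 encode the subunits that together form the atrial channel opened by acetylcholine. Kcnj5 (chromosome 9, 32314706 to 32344380) had 5, 4, 1 and 3 called regions. Its region at the gene end opposite its RefSeq start (32313957 to 32314570) was called in all hearts at −log10 p of 60.7, 49.9, 30.4 and 12.3. A region over the start itself (32344198 to 32344456) was called in WT 1 alone, at 6.00. The WT-only region in the body (32340853 to 32341211) reached 6.25 and 8.03. Kcnj3 (chromosome 2, 55411798 to 55598145) had a single region, called in both edKO hearts and in neither WT heart (55436256 to 55436637). It was weak, at −log10 p of 7.13 in edKO 1 and 6.04 in edKO 2, with 11 fragments at the summit in each.

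**Figure D4:**
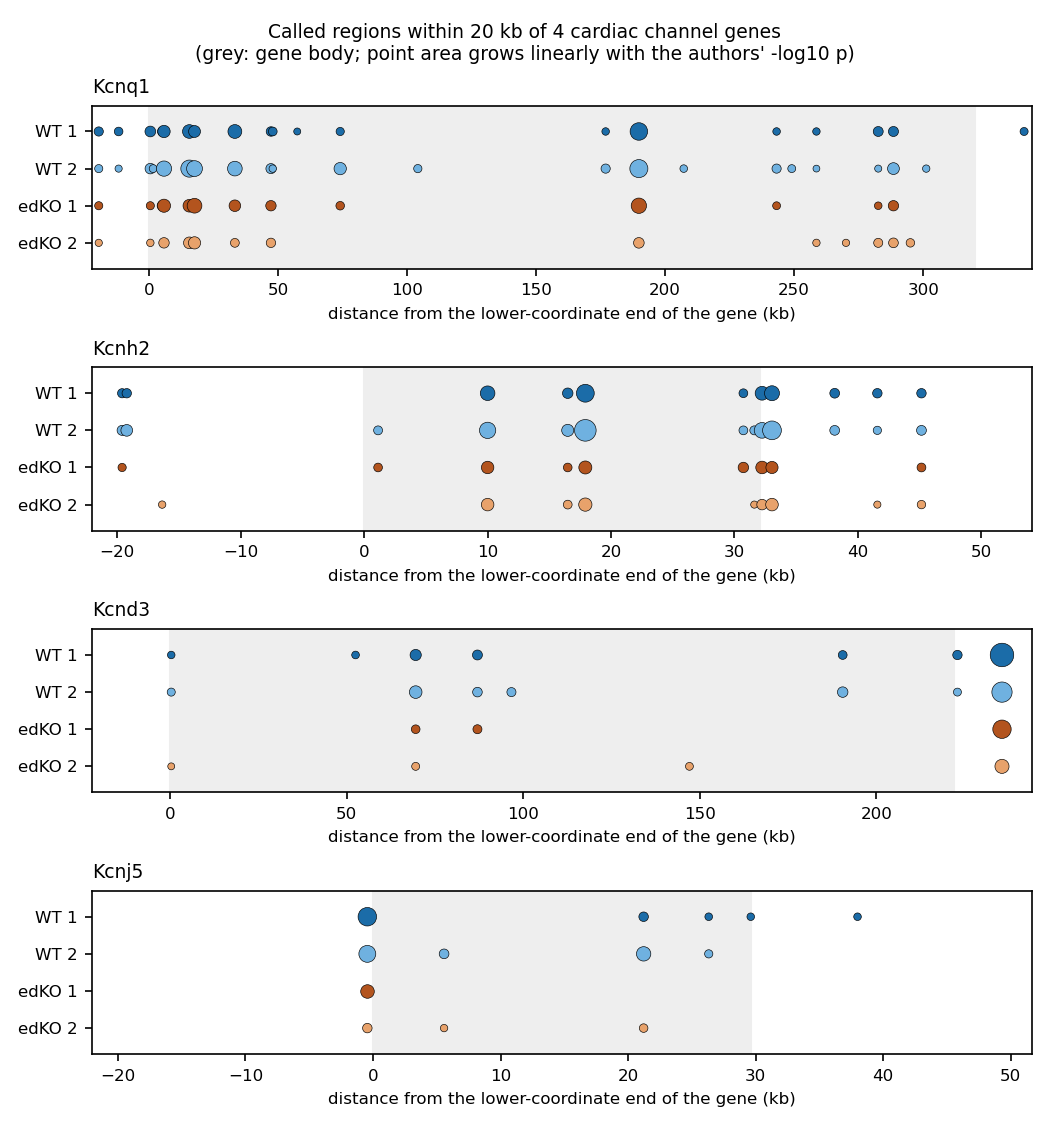
Points mark the called regions within 20 kb of Kcnq1, Kcnh2, Kcnd3 and Kcnj5 in each library, by distance in kb from the lower-coordinate end of the gene, with the gene body in grey and an area that grows with the authors' −log10 p. The largest points recur in all 4 rows, and the regions missing from both edKO rows, such as the 3 of Kcnq1, are small.

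The start sites of these genes differed in sequence as well as in calls. The RefSeq promoter table of GRCm38.p6 holds 68 of the 93 genes, so a check of base composition over the whole group is void, and Kcnq1 has no entry. Shown are the 250 bases before the start of the 6 other cardiac channels and of Kcnmb4, whose start carried the other edKO-only region, 5′ to 3′ on the strand of the gene. Capitals mark GC boxes, the letters GGGCGG on either strand, to which Sp1 binds.

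Kcnj2, chr11:111065914-111066163, plus strand: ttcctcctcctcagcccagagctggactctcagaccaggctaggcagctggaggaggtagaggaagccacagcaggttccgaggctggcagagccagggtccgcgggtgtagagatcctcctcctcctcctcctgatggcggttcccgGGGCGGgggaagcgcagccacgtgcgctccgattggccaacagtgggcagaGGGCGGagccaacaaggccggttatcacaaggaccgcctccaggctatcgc
Kcnh2, chr5:24329592-24329841, minus strand: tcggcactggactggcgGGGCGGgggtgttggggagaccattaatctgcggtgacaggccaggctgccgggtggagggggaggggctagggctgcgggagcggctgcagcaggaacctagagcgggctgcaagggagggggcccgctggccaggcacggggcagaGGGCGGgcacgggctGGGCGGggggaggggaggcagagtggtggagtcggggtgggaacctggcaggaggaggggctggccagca
Kcnj5, chr9:32344345-32344594, minus strand: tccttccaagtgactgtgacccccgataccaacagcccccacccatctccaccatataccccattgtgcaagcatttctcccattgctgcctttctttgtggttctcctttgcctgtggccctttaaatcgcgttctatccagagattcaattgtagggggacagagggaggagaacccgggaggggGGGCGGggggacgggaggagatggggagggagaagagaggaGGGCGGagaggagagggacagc
Kcnd2, chr6:21215096-21215345, plus strand: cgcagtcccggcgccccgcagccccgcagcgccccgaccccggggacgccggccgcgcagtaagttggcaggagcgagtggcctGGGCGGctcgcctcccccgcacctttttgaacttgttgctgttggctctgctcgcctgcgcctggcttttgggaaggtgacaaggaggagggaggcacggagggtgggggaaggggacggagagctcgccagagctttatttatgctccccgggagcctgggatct
Kcnd3, chr3:105451640-105451889, plus strand: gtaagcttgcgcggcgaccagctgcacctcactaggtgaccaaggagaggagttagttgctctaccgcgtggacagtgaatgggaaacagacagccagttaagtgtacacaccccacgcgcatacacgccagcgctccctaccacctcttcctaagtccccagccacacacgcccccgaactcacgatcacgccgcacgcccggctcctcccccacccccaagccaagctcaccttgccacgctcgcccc
Kcnj3, chr2:55435720-55435969, plus strand: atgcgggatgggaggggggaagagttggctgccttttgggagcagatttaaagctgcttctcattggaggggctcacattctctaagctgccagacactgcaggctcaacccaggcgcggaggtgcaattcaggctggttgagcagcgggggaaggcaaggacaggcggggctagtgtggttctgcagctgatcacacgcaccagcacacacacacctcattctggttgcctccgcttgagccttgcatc
Kcnmb4, chr10:116473524-116473773, minus strand: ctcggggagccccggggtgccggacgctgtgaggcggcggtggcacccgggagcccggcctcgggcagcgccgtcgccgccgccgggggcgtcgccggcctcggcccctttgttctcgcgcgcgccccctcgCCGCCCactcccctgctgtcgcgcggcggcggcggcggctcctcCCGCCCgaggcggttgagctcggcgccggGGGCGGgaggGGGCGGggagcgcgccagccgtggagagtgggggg

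Peaks over these windows, extended 50 bases past the start, were called in all 4 hearts for Kcnj2 and Kcnh2, in WT 1 for Kcnj5, in WT 2 and edKO 2 for Kcnd2, in both edKO hearts for Kcnmb4 and in no heart for Kcnd3 and Kcnj3. The start listed for Kcnh2 lies inside the gene, under a region called throughout (24329141 to 24330052). GC boxes numbered 2 in Kcnj2, 3 in Kcnh2, 2 in Kcnj5, 1 in Kcnd2, 4 in Kcnmb4 and 0 in Kcnd3 and Kcnj3, and 43.1% of all 21045 protein-coding promoter windows held at least 1. The dinucleotide CG occurred 43 times in Kcnmb4, 22 times in Kcnd2, 18 times in Kcnd3, 14 times in Kcnj2 and Kcnh2 and 7 times in Kcnj5 and Kcnj3. Its median was 18 in the 9056 promoters called in all hearts and 3 in the 9516 called in none, so the uncalled window of Kcnd3, at 18, held as many as the median called promoter. None of the 7 windows held AGGTCA on either strand, the core motif that nuclear receptors recognize, which 12.8% of all promoter windows hold. At that share, 7 chosen windows are too few for its absence to be read as a result. The single region of Kcnj3 began just downstream of its listed start, beyond the printed window. Kcnd3 likewise had a region 145 bp past its listed start (105452035 to 105452403). It was called in WT 1, WT 2 and edKO 2, at −log10 p of 5.89, 7.47 and 4.23, so only the window itself was uncalled.

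Among the other inward rectifiers, Kcnj12 and Kcnj4, relatives of Kcnj2, had 3 WT-only regions each. Kcnj12 (chromosome 11, 61022564 to 61073269) had 8, 10, 4 and 3 called regions, and its WT-only regions reached −log10 p of 8.05 and 14.5 (61025134 to 61025440), 7.36 and 10.4, and 7.75 and 9.77 in WT 1 and WT 2. Right beside the first lay a region (61025620 to 61026026) called in WT 1, WT 2 and edKO 1, at 16.1, 12.4 and 18.1. Kcnj4 (chromosome 15, 79480226 to 79512511) had 8, 6, 2 and 2. Its WT-only regions reached 9.65 and 9.98 (79477345 to 79477678), 8.98 and 7.89 (nearer to Csnk1e), and 6.09 and 12.3. Of its 8 regions, 5 had Kcnj4 as their nearest gene. At both genes every edKO count lay below every WT count, as for 23.0% of all protein-coding genes with a region. The WT-only region counted for Kcnj14 (chromosome 7, 45801378 to 45801725) reached 13.0 and 8.07 and was nearer to Lmtk3. In all, the 14 Kcnj genes held 10 WT-only regions of 34 (29.4%, beside 19.4% of all regions).

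Leak channels were led by Kcnk3, the acid-sensitive TASK-1 channel of atrial myocytes (chromosome 5, 30588170 to 30625270). It had 11 called regions in each WT heart, 5 in edKO 1 and 6 in edKO 2. Its 3 WT-only regions lay in the gene body, the strongest (30617824 to 30618246) at −log10 p of 14.96 and 14.2, with 37 and 36 fragments at the summit, while 4 others, 2 of them at a gene end, were called in all hearts. Kcnk7, a relative with no known current of its own, had 5, 9, 7 and 4 called regions, of which 9 of 11 lay nearer to other genes. The 14 Kcnk genes together held 4 WT-only regions of 29 (13.8%, beside 19.4% of all regions).

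Auxiliary subunits included the strongest WT-only region of the whole group. It lay in Kcne1, the partner of Kcnq1 in the slow delayed rectifier (chromosome 16, 92357045 to 92357387), where −log10 p reached 17.6 (WT 1) and 33.1 (WT 2), with 37 and 55 fragments at the summit. Kcne1 had 6, 5, 3 and 2 called regions, and a pair at its other end was called throughout, the stronger (92345135 to 92345618) at 60.7, 60.9, 31.2 and 22.3. At the end nearer to the WT-only region, 92358791 to 92359129 was called in WT 1, WT 2 and edKO 1, at 10.3, 11.2 and 6.34. Kcnab3, a beta subunit of Kv1 channels, had a WT-only region over its gene end (chromosome 11, 69326143 to 69326400) at 10.1 and 10.9. Kcnmb4, a beta subunit of the large-conductance calcium-activated channel, had both kinds: an edKO-only region at its gene end (chromosome 10, 116473559 to 116473998), at 9.63 and 5.37 in edKO 1 and edKO 2, and a WT-only region in its body at 8.06 and 6.33. WT 2 had a peak of its own close to that gene end (116474222 to 116474431) at 5.33. The 4 Kcnip genes held 0 WT-only regions of 9, beside 19.4% of all regions. Of these 9, 4 were called in only 1 edKO heart (44.4%, against 21.6% of all regions) and 5 in both. Kcnip2, the Kv4 subunit KChIP2, chosen after its values were seen, had 5, 6, 3 and 2 called regions in WT 1, WT 2, edKO 1 and edKO 2. Its listed start was called in all hearts (chromosome 19, 45815767 to 45816452) at 12.1, 19.1, 25.5 and 4.93.

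Of the calcium-activated channels, the small-conductance genes Kcnn2 and Kcnn3 had 2 WT-only regions each and Kcnn1 none. Kcnn2 (chromosome 18, 45268750 to 45685887) had 5, 6, 3 and 2 called regions, and Kcnn3 (chromosome 3, 89520164 to 89672494) 4, 5, 1 and 5. At Kcnn3, 4 of the 5 regions called in edKO 2 were called in no other heart, and the other was shared with WT 2 alone. The stronger WT-only region of Kcnn2 (45278199 to 45278610) reached −log10 p of 5.48 and 17.2, and that of Kcnn3 (89688728 to 89689083) 16.3 and 5.33. All 5 regions of Kcnn1, 3 of them nearer to other genes, were called in every heart, the one at its gene end (chromosome 8, 70865397 to 70866013) at 77.2, 74.2, 59.4 and 38.8.

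The WT-only region counted for Kcnc1, a Kv3 pore, at 8.89 and 9.08, was nearer to Myod1. Kcng2, a silent modifier subunit (chromosome 18, 80294544 to 80364254), had 8, 12, 7 and 7 called regions, of which 6 were called in all hearts, the strongest inside the gene (80330867 to 80331612) at 79.5, 88.8, 51.5 and 25.0.

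Few potassium channel genes had an end that was called in all 4 hearts. A peak within 1 kb of either end was called for 33, 40, 28 and 40 of the 93 genes in WT 1, WT 2, edKO 1 and edKO 2, with means of 36.5 ± 4.95 (SD, n = 2) and 34 ± 8.49 (SD, n = 2; exact permutation p = 1). Ends of 22 genes (23.7%) were called in all 4 hearts, against 46.8% of all protein-coding genes, and those of 40 genes (43.0%) in none, against 40.4%. The cardiac channels stood at 4 of 7 called in all hearts: Kcnj2, Kcnq1, Kcnh2 and, opposite its listed start, Kcnj5. The others stood at 18 of 86 (20.9%). No test was made of this difference. WT-only gene ends numbered 4 of 31 (12.9% against 3.34% of all genes), at Kcnab3, Kcnj12, Kcnj4 and Kcnk12, and edKO-only ends 0 of 23 (against 0.476%). At Kcnj12 and Kcnk12, a silent relative of the leak channels, the WT hearts were called at different regions, so no single region was lost. With the start sites of the promoter table, for 68 genes, WT-only starts numbered 0 of 20, and with lists of equal length 1 of 19 gene ends was WT-only. The shares of all genes at these settings were not computed, so these counts have no value beside them.

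**Figure D5:**
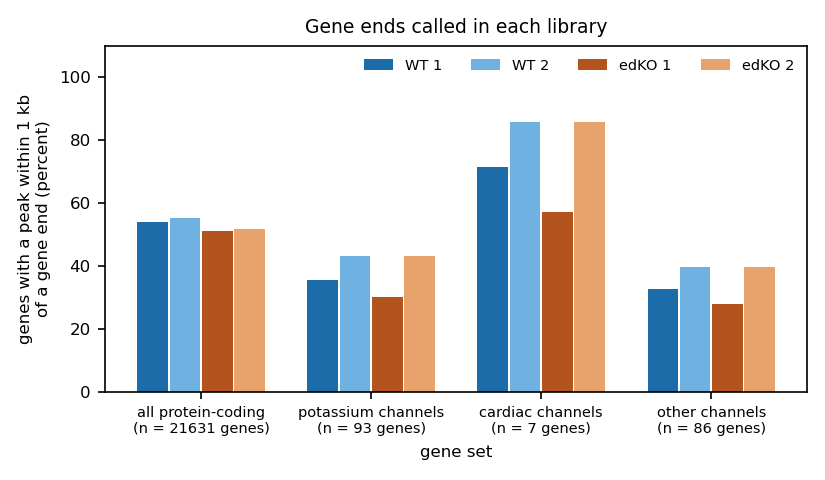
Bars give the percent of genes with a called peak within 1 kb of either gene end in each library, for all protein-coding genes, the potassium channel genes, the 7 cardiac channels and the others. The potassium channel genes lie below all genes in every library, and within them WT 2 and edKO 2, at 40 genes each, exceed WT 1 and edKO 1, at 33 and 28.

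A list of 16 genes, which assemble with cardiac potassium channels, regulate them or carry the pacemaker current, had 99 regions, of which 14 of 56 were WT-only (25.0% against 19.4%) and 2 of 32 edKO-only (6.25% against 1.35%). Rgs6, which shuts off the G protein signal at the Kcnj3 and Kcnj5 channel, held 5 WT-only regions of 10, with 14, 16, 6 and 5 called regions in WT 1, WT 2, edKO 1 and edKO 2. Its strongest (chromosome 12, 82935428 to 82935768) reached −log10 p of 16.6 and 19.2. Ank2, a membrane anchor of transporters, held 3 of 8, Hcn2, a pacemaker channel, 2 of 5, Cav3, the caveolin of muscle, 1 of 2, and Irx3, a transcription factor of the conduction system, 1 of 3, the last at 23.5 and 19.6. Both edKO-only regions belonged to Chrm2, the muscarinic receptor that opens the Kcnj3 and Kcnj5 channel, which had 6, 6, 8 and 7 called regions. They were weak, at 5.05 and 7.74 (chromosome 6, 36507294 to 36507526) and 4.46 and 5.85 in edKO 1 and edKO 2.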

How the data were processed

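ATAC-seq was run on 2 WT and 2 edKO hearts, grouped by the sample titles. The authors deposited 1 peak list per library. The submitters' processing notes name MACS2, Bowtie2, SAMtools, cutadapt, bcl2fastq and CASAVA, and as builds GRCm38 and mm10. No version, Tn5 shift or treatment of duplicates is stated there. The deposited lists give per peak a fold enrichment at the summit (a ratio to local background), a −log10 p, a −log10 q, a summit offset and a score. The fold and −log10 p are the authors' and describe peaks within 1 list only; a weak site passes the threshold more easily in a deeper list, so a missing call does not show a closed site.

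Fragments at a summit and the local background were solved from fold and −log10 p from the Poisson distribution. A whole number fitted within 0.001 in −log10 p for 99.9858% to 100% of peaks. Peaks overlapping by at least 1 bp were merged, and each region was marked as called in every library with a peak in it. Gene positions came from the RefSeq table of GRCm38.p6, which has no strand, so either gene end was used. Totals per library were compared by exact permutation tests, two-sided, and region counts were described beside all regions without a test. Named were the 7 cardiac channels, the 10 others with most WT-only regions, the genes of the 10 strongest WT-only regions, those with an edKO-only region, the 5 with most regions called in all hearts, genes with WT-only or edKO-only ends, and partner genes with such regions. Members and lists were chosen with earlier results of these data known. Results of some single genes are not reported here. Merging, distances and call patterns were tested on simulated data. Python 3.11.15, pandas 2.3.3, numpy 2.4.6 and scipy 1.17.1 were used.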

Additional observations from a re-analysis of the deposited data

How the results depend on the processing

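All values rest on calls in 4 libraries of unequal list length. The difference in called regions, 65.5 more in WT, was −6.5 with lists of equal length and stayed positive elsewhere, from 54 to 78.5 without 1 library. The share of calls, at a difference of −0.000751 percentage points, turned to 0.0263 with −log10 p of at least 10, 0.0219 and 0.0199 with flanks of 0 and 5 kb and 0.0284 where a potassium channel gene was nearest, and ranged from −0.0471 (without edKO 1) to 0.0466 (without edKO 2). The difference in gene ends, 2.5, was −10 with lists of equal length and from −3.5 (without edKO 1) to 8.5 (without edKO 2). It was 0.5 with start sites, an alternative chosen after seeing the data. WT-only regions numbered 12 with lists of equal length (8.82% against 10.6% of all regions), 58 with a flank of 50 kb (19.0% against 19.4%) and 51 to 89 without 1 library (27.1% to 36.8%, against 24.6% to 35.9% of all regions), where fewer libraries are required. edKO-only regions numbered 5 with lists of equal length (4.55% against 3.85% of all regions), 0 with −log10 p of at least 10 (against 0.243%) and 3 to 56 without 1 library. They were 56 without edKO 1 (29.8% against 24.2%), 20 without edKO 2 (11.98% against 10.1%), 4 without WT 1 (3.64% against 2.81%) and 3 without WT 2 (2.75% against 3.61%). Cardiac WT-only regions numbered 3 of 28 with lists of equal length (10.7% against 10.6%), 4 of 27 and 5 of 30 with flanks of 0 and 5 kb (14.8% and 16.7% against 19.4%) and 12 to 15 without 1 library (30.6% to 36.8% against 24.6% to 35.9%). With −log10 p of at least 10 they were 8 of 24 (33.3% against 21.6%). With the replicate block (equal numbers paired, 2 pairs, exact sign-flip test) the difference in called regions was 65.5 (p = 0.5, the smallest possible), that in share −0.000751 and that in gene ends 2.5 (p = 1 each); the labels do not say that numbers mark a litter or batch.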
